A study of Mus musculus with 6 samples.

Results

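The genes described here are 10 chemokine ligands that blood neutrophils or the cells beside them can make: the CXC ligands *Cxcl1*, *Cxcl2*, *Cxcl3*, *Cxcl10* and *Cxcl16*, and the CC ligands *Ccl3*, *Ccl4*, *Ccl5*, *Ccl6* and *Ccl9*. They were taken by name from the 29097 genes of the deposited table, and all 10 have a row. Genes averaging 1 FPKM or more (fragments scaled to gene length and to the library's total) entered the test, and 9 of the 10 did. *Cxcl16* did not reach this level and is described mainly by its values. The libraries were made from peripheral blood (PB) neutrophils of 8-week-old male C57BL/6 mice, sorted as CD45+CD11b+Ly6G+ cells. In 3 libraries (LIP) the mice had ligature-induced periodontitis, an inflammation of the gum and jaw bone set off by silk ligatures kept around molars for 14 d. The other 3 libraries (Ctrl) came from mice left unligated over the same period, and every library in either group pooled the neutrophils of 5 mice. No mouse in these groups carried a transgene or received a drug, as far as the labels and methods say.

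Chemokines are small secreted proteins that attract leukocytes by binding receptors coupled to G proteins. CXCL1, CXCL2 and CXCL3 bind CXCR2, the receptor that brings neutrophils out of the bone marrow and into inflamed tissue, so that neutrophils which make them can recruit more neutrophils. CXCL10 attracts T and NK cells through CXCR3 and is known as an interferon-induced chemokine, whereas CXCL16 is made as a membrane protein, binds CXCR6 and is cut free by the proteases ADAM10 and ADAM17. CCL3, CCL4 and CCL5 attract monocytes and lymphocytes, CCL3 and CCL5 in part through CCR1, and CCL6 and CCL9 are rodent chemokines that bind CCR1. Many chemokine genes are switched on by the transcription factor NF-κB, and their mRNAs often carry ATTTA motifs in the 3′ UTR, which are known to shorten mRNA life.

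The table annotates all 10 genes to chemokine activity, a term given to 34 genes in all, and 9 of them, without *Cxcl16*, to neutrophil chemotaxis, a term of 61 genes. By the table's GRCm38 coordinates, *Cxcl1* (ENSMUSG00000029380, from 90891241 to 90893115), *Cxcl2* (ENSMUSG00000058427, from 90903871 to 90905938) and *Cxcl3* (ENSMUSG00000029379, from 90786103 to 90789600) lie on the plus strand of chromosome 5 within 119.8 kb. *Cxcl10* (ENSMUSG00000034855, from 92346638 to 92348882, minus strand) lies farther along the same chromosome. *Ccl5* (ENSMUSG00000035042), *Ccl9* (ENSMUSG00000019122), *Ccl6* (ENSMUSG00000018927), *Ccl3* (ENSMUSG00000000982) and *Ccl4* (ENSMUSG00000018930) follow each other on chromosome 11 within 138.9 kb, from 83525778 to 83664683. *Cxcl16* (ENSMUSG00000018920) sits elsewhere on chromosome 11, from 70453983 to 70459984. So 8 of the 10 genes belong to a pair of compact gene clusters, a neutrophil-attracting CXC cluster and a CC cluster.

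Promoters are shown for *Cxcl1*, *Cxcl2*, *Cxcl3* and *Cxcl10*. With TMM the log2 fold changes of *Cxcl1*, *Cxcl2* and *Cxcl3* were 1.82, 1.77 and 1.61, and that of *Cxcl3* was 1.17 without LIP replicate 1. *Pf4* and *Ppbp*, chemokine genes close by on chromosome 5, changed by 1.21 and 1.23 in the same fit, but both are also platelet genes. Whether promoter letters bear on any of these changes was not tested. RefSeq (GRCm38.p6) gave a promoter for 7 of the 10 genes, and *Ccl4*, *Ccl5* and *Cxcl16* had no entry. The 250 bases before each start were searched on both strands for the letters GGANTTTCC (N is any base), a form of the NF-κB motif. Capitals mark a match to GGANTTTCC on either strand, and in *Cxcl10* also a match to GAAANNGAA, part of the interferon-stimulated element.
Cxcl1, chr5:90891125-90891214, plus strand: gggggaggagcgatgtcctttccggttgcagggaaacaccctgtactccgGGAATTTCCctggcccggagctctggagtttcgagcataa
Cxcl2, chr5:90903779-90903868, plus strand: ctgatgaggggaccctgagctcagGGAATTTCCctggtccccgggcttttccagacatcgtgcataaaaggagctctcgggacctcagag
Cxcl3, chr5:90785981-90786070, plus strand: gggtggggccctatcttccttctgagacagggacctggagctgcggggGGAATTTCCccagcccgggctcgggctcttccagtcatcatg
Cxcl10, chr5:92348950-92349109, minus strand: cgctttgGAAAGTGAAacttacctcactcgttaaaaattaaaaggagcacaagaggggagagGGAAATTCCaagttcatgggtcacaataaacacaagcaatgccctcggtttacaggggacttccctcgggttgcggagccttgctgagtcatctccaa

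*Cxcl1*, *Cxcl2* and *Cxcl3* each held the same 9 letters on their own strand, beginning at positions -70, -96 and -72 relative to the start, and the G before them and the C after them were shared as well. GGANTTTCC was found in 350 of 32851 RefSeq promoters of this length (1.065%), and GGGAATTTCC, which includes the G before them, in 28 (0.0852%). Aligned over the printed windows, these shared letters included, the 3 promoters had 63.3% identical columns between *Cxcl1* and *Cxcl3*, 53.4% between *Cxcl1* and *Cxcl2* and 44.1% between *Cxcl2* and *Cxcl3*. In *Cxcl10* the match to GGANTTTCC stood farther out, from -158 to -150 and on the opposite strand. *Cxcl10* also held GAAANNGAA from -213 to -205, letters found in 7.129% of promoters and, among the members, also in *Ccl3*. No GGANTTTCC was found in these windows of *Ccl3*, *Ccl6* or *Ccl9*. Other forms of the NF-κB motif were not searched for in any of the promoters, so they may be present in lower case. The AP-1 letters TGANTCA, present in 6.749% of promoters, were found in *Cxcl10* and *Ccl9*, and TATAAA, present in 12.368%, in *Cxcl3* and *Ccl9*. These matches describe letters and were not tested as binding sites.

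The transcripts also differed in their 3′ UTRs. *Cxcl2* carried 11 ATTTA motifs (14.99 per kb), *Ccl3* 5 (12.22 per kb), *Cxcl1* 7 (11.82 per kb), *Cxcl3* 5 (7.75 per kb) and *Ccl4* 2 (6.62 per kb). At the other end stood *Ccl6* with 4.24 per kb, *Cxcl10* with 2.74, *Ccl9* with 2.03, *Cxcl16* with 1.41 and *Ccl5* with none. Across 19502 genes with a 3′ UTR of at least 100 bases the median was 1.32 per kb, and 8.08% of genes reached 5 per kb. The longer form TATTTAT occurred 7 times in *Cxcl2* and 6 times in *Cxcl1*, 2 times in *Cxcl3*, and singly in *Ccl3* and *Ccl4*. Across the same genes, 27.4% had at least 1 copy, 10.1% had 2 or more and 3.87% had 3 or more.

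The sorted cells carried the markers of neutrophils in every library, but the groups also differed in other blood cell transcripts. All 20 mature neutrophil genes listed, such as *S100a8* and *Csf3r*, were higher in LIP with TMM (median log2 fold change 1.84), with summed FPKM from 16861 to 20263 in Ctrl and from 56818 to 61937 in LIP. All 9 B cell genes and all 8 erythroid genes tested were lower with TMM, library totals and neutrophil scaling alike, with medians of -2.59 and -2.96 for TMM. Summed FPKM of the erythroid genes ran from 180640 to 186840 in Ctrl and from 19478 to 20187 in LIP, and that of the B cell genes from 3621 to 3887 and from 526 to 589. In such bulk samples, fewer cells of a type and less RNA per cell cannot be told apart. Total counts lay between 52186555 and 57262379 reads per library, and the TMM factors, which set the libraries on a common scale on the assumption that most genes do not change, were 1.10 to 1.14 in Ctrl and 0.889 to 0.905 in LIP.

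Of the 9 chemokine genes tested, 8 were higher in LIP than in Ctrl and none was lower by the quasi-likelihood test of edgeR with TMM (adjusted p under 0.05), whereas none of the 8 stayed higher when the mature neutrophil genes set the scale. *Cxcl1* and *Cxcl2* were 3.54-fold and 3.42-fold higher, *Cxcl3* 3.05-fold, *Cxcl10* 2.78-fold, *Ccl6* 2.55-fold, *Ccl9* 1.87-fold, *Ccl3* 1.80-fold and *Ccl4* 1.40-fold, and *Ccl5* stood at 0.956-fold without passing the test. The median log2 fold change of the 9 genes was 1.35, against -0.09 over all genes tested. Among all 10440 genes tested, 26.5% were higher and 27.2% lower. The libraries of the groups did not overlap in CPM (counts set to a common library size with TMM) for the same 8 genes, which was also so for 63.4% of all genes tested.

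**Figure D1:**
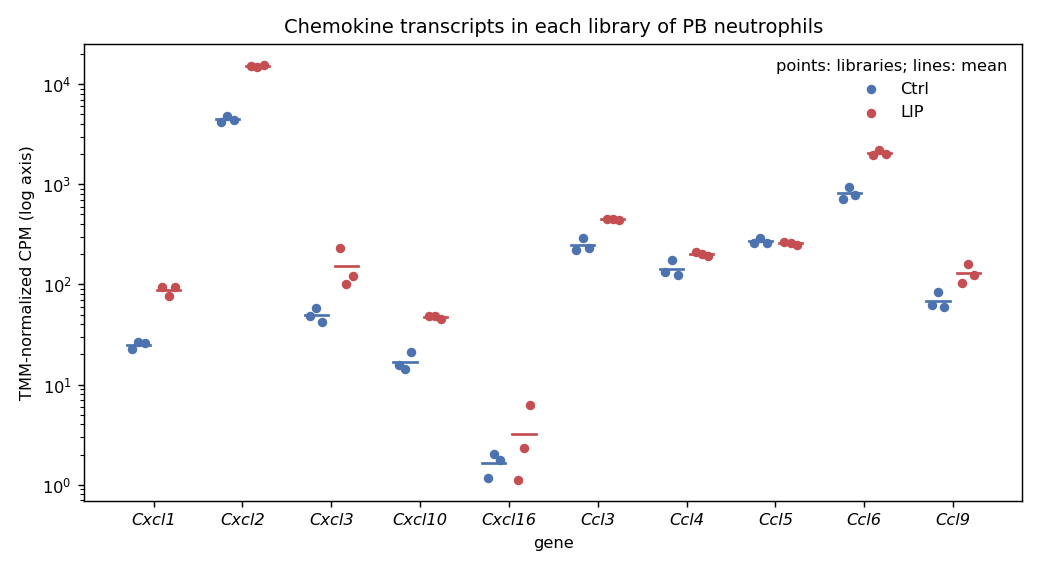
TMM-normalized CPM of the 10 chemokine genes on a log axis, with 1 point per library and a line at the mean of the 3 Ctrl (blue) or 3 LIP (red) libraries. LIP lies above Ctrl without overlap for 8 genes on this scale, *Ccl5* and *Cxcl16* overlap, and *Cxcl2* lies above all others. Scaling on mature neutrophil genes would remove or turn these differences.

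Per length, *Cxcl2* was by far the most abundant of the 10 transcripts in either group. In Ctrl its level was 2219.9 ± 112 FPKM (SD, n = 3), followed by *Ccl6* (466 ± 54.5), *Ccl3* (334 ± 45.0), *Ccl5* (290.5 ± 16.6) and *Ccl4* (224 ± 40.0). *Ccl9* (23.4 ± 4.20), *Cxcl3* (14.6 ± 2.32), *Cxcl1* (13.8 ± 0.846), *Cxcl10* (7.75 ± 1.65) and *Cxcl16* (0.552 ± 0.146) followed in this order. Neighbouring ranges overlapped only between *Ccl3* and *Ccl5* and between *Cxcl3* and *Cxcl1*. The levels thus spanned a range from a transcript among the 26 most abundant of all genes in every Ctrl library, *Cxcl2*, to *Cxcl16* below 1 FPKM.

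In LIP, *Cxcl2* reached 6140.2 ± 153 FPKM (SD, n = 3) and stood at the seventh to ninth place among all genes in the 3 libraries. *Ccl6* (961 ± 66.9), *Ccl3* (487 ± 5.20), *Ccl4* (254 ± 9.28) and *Ccl5* (225 ± 9.22) came next without overlap, so that *Ccl5* stood below *Ccl4* instead of above it. *Cxcl1* (39.4 ± 4.69), *Cxcl3* (35.9 ± 16.4) and *Ccl9* (35.3 ± 8.07) overlapped each other, and *Cxcl10* (17.4 ± 0.587) and *Cxcl16* (0.887 ± 0.742) came last. The top 3 places were therefore the same in the groups.

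Of the summed FPKM of the 10 genes, *Cxcl2* made up between 60.1% and 62.7% in the Ctrl libraries and between 73.9% and 75.9% in the LIP libraries. The share of *Ccl5* went from between 7.93% and 8.23% to between 2.57% and 2.85%. *Ccl3* went from between 8.92% and 9.88% to between 5.79% and 6.03%, and *Ccl4* from between 5.58% and 6.89% to between 2.93% and 3.23%. The share of *Ccl6* overlapped, with 12.3% to 13.5% in Ctrl and 11.2% to 12.7% in LIP. These shares do not depend on how the libraries are scaled to each other. The summed level itself was 3415 to 3906 FPKM in Ctrl and 8112 to 8317 in LIP, and the 10 genes took 0.647% to 0.733% of all reads in Ctrl and 1.64% to 1.71% in LIP, of which 0.479% to 0.527% and 1.33% to 1.41% fell on *Cxcl2*.

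**Figure D2:**
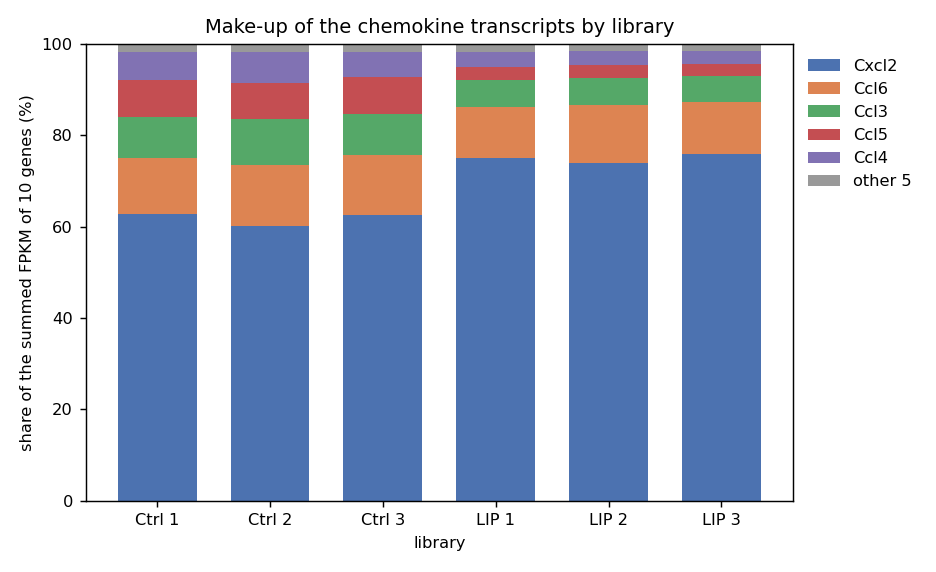
Share of each gene in the summed FPKM of the 10 chemokine genes, in percent, with 1 bar per library. The *Cxcl2* part is larger in all 3 LIP bars (73.9% to 75.9%) than in the Ctrl bars (60.1% to 62.7%), and the *Ccl3*, *Ccl4* and *Ccl5* parts are smaller. The other 5 genes are drawn together.

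Among the CXCR2 ligands, *Cxcl2* changed with the least spread. Its values were 4220.3, 4782 and 4362 CPM in the Ctrl libraries and 15172, 14913 and 15626 CPM in the LIP libraries. The LIP libraries lay close together and far above every Ctrl library on this scale. On the log2 scale *Cxcl2* rose by 1.77 (SE 0.0641, edgeR adjusted p = 5.31e-08).

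*Cxcl1*, which binds the same receptor, had 22.9, 26.3 and 26.0 CPM in Ctrl and 94.4, 76.3 and 95.3 CPM in LIP. The groups were again far apart. Its rise of 1.82 on the log2 scale (SE 0.147, edgeR adjusted p = 3.47e-06) was the largest of the 9, and 3.06% of all genes tested had a larger value.

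*Cxcl3* had 48.8, 58.2 and 41.7 CPM in Ctrl and 231, 99.9 and 123 CPM in LIP. The groups did not overlap, but LIP replicate 1 lay far above the other LIP libraries. *Cxcl3* rose by 1.61 on the log2 scale (SE 0.275, edgeR adjusted p = 0.000679), and by 1.17 without LIP replicate 1, still past the threshold. *Cxcl3* and *Cxcl2* share 80 of their 31-base windows (8.11% and 4.30% of the windows of each), so reads from these windows could be assigned to either gene, and *Cxcl2* has far more of them.

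*Cxcl10*, the ligand of CXCR3, was a low-level transcript with 15.6, 14.2 and 21.0 CPM in Ctrl and 48.0, 48.3 and 45.3 CPM in LIP. The LIP libraries were close to each other and in CPM all lay above 2 times the highest Ctrl library. In FPKM, from 16.8 to 17.9 against at most 9.59 in Ctrl, they were separate but did not reach 2 times that value. This rise was 1.48 on the log2 scale (SE 0.190, edgeR adjusted p = 9.71e-05). The gene *Art3* lies across it on the opposite strand with a mean FPKM of 0.245, and whether strand was used in counting is not given in the sources used here.

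*Cxcl16*, the ligand of CXCR6, had 70, 121 and 103 reads in Ctrl and 56, 118 and 295 reads in LIP, or 1.16, 2.02 and 1.76 CPM against 1.11, 2.31 and 6.25 CPM. The groups overlapped, with LIP replicate 1 below all Ctrl libraries and LIP replicate 3 above all others. With no filter on low genes, the log2 difference was 1.00 with an SE of 0.70 and did not pass (edgeR adjusted p = 0.358). The sheddase genes *Adam10* and *Adam17* did not pass the test either, with log2 fold changes of 0.06 and 0.36.

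In the chromosome 11 cluster, the changes were uneven between neighbouring genes. *Ccl6*, a CCR1 ligand of rodents, had 721, 931 and 784 CPM in Ctrl and 1967, 2225 and 2016 CPM in LIP. In CPM the LIP libraries all lay above 2 times the highest Ctrl library. In FPKM, from 908 to 1036 against at most 527 in Ctrl, they were separate but did not reach 2 times that value. *Ccl6* rose by 1.35 on the log2 scale (SE 0.104, edgeR adjusted p = 2.66e-06). *E230016K23Rik*, which overlaps *Ccl6* on the opposite strand, had at most 295 reads in any library, against at least 43422 for *Ccl6*.

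*Ccl9*, the related CCR1 ligand next to it, had 62.7, 84.4 and 60.1 CPM in Ctrl and 103, 160 and 124 CPM in LIP. The groups were separate in CPM, but in FPKM, which carries no TMM factor, LIP replicate 1 (28.0) lay just below Ctrl replicate 2 (28.2). *Ccl9* rose by 0.90 on the log2 scale (SE 0.185, edgeR adjusted p = 0.00220). Of its 31-base windows 3.80% occur in transcripts of 1049 other genes, so part of its reads may not be its own.

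*Ccl3*, a ligand of CCR1, had 222, 291 and 232 CPM in Ctrl and 452, 450 and 441 CPM in LIP. The LIP values were nearly equal and above all Ctrl values. *Ccl3* rose by 0.85 on the log2 scale (SE 0.116, edgeR adjusted p = 0.000144).

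*Ccl4*, its closest relative in the list by function, had 132, 175 and 124 CPM in Ctrl and 209, 201 and 193 CPM in LIP. The groups were separate but near each other, and in FPKM they overlapped. The log2 rise of 0.48 (SE 0.138, edgeR adjusted p = 0.0132) lost its call with library totals in place of TMM (0.17, adjusted p = 0.305) and without Ctrl replicate 3 (0.39, adjusted p = 0.0633).

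*Ccl5*, a ligand of CCR1 and CCR3, had 257, 293 and 262 CPM in Ctrl and 268, 262 and 246 CPM in LIP. The groups overlapped on this scale, and the log2 difference of -0.06 (SE 0.0999) did not pass (edgeR adjusted p = 0.606). In FPKM the LIP libraries, from 214 to 231, lay below the Ctrl libraries, from 281 to 310. With library totals *Ccl5* was called lower (log2 fold change -0.38, adjusted p = 0.00613), so its place relative to the Ctrl group depended on the scale.

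The size of these changes, and for 4 genes the direction of the call, depended on what the libraries were scaled to. With library totals, 7 of the 9 genes were higher and 1 lower (18.4% and 39.7% of all genes tested), and when the 20 mature neutrophil genes set the scale none was higher and 5 were lower (0.613% and 88.5% of all genes tested). The median gene lay at -0.09 with TMM, at -0.42 with library totals and at -1.9 with neutrophil scaling. A change of scale shifts all genes by about the same amount, so distances from the median gene are fixed: *Cxcl1* lay 1.92 above it, *Cxcl2* 1.87, *Ccl6* 1.44 and *Ccl5* 0.03. Relative to the mature neutrophil genes, *Cxcl1* (log2 fold change 0.02, adjusted p = 0.920), *Cxcl2* (-0.03, adjusted p = 0.679), *Cxcl3* (-0.20, adjusted p = 0.516) and *Cxcl10* (-0.33, adjusted p = 0.140) did not pass. *Ccl6* (-0.46), *Ccl9* (-0.92), *Ccl3* (-0.96), *Ccl4* (-1.33) and *Ccl5* (-1.87) were lower, with adjusted p of 0.00180 or less from edgeR. Among the 9 genes the CXCR2 ligands had the highest values and *Ccl5* the lowest, but without LIP replicate 1 *Cxcl3* (1.17) stood below *Cxcl10* (1.46) and *Ccl6* (1.38).

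**Figure D3:**
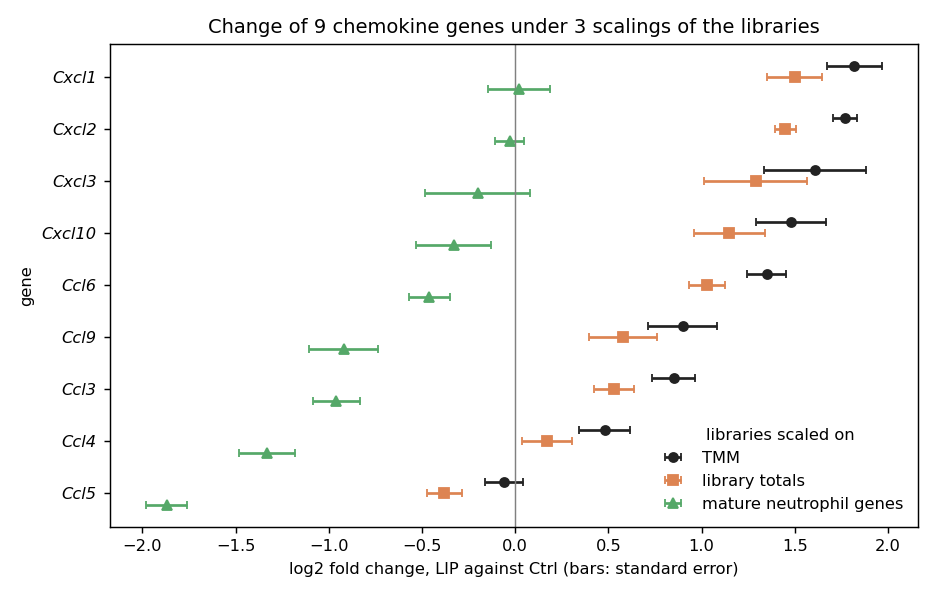
Log2 fold change of LIP against Ctrl for the 9 chemokine genes tested, with bars of 1 standard error, when libraries were scaled by TMM (black), library totals (orange) or the mature neutrophil genes (green). With TMM 8 genes lie right of 0, and with neutrophil scaling only *Cxcl1* does, at 0.02, while *Ccl6*, *Ccl9*, *Ccl3*, *Ccl4* and *Ccl5* pass as lower.

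Ratios between genes within a library are free of the scaling, and 6 were formed from FPKM values, chosen after the values were seen. Their groups were compared with two-sided exact permutation tests, for which 3 libraries against 3 cannot give a p below 0.1. *Cxcl2* to *Cxcl1* had a mean ± SD of 162 ± 8.01 over the Ctrl libraries and 157 ± 17.5 over the LIP libraries (log2 difference -0.04, exact p = 0.8), and the libraries of these groups overlapped. *Cxcl2* to *Cxcl3* was 154 ± 20.2 and 193 ± 73.3 (exact p = 0.6), with the LIP libraries on either side of the Ctrl libraries. In the CC cluster the ratios lay higher in LIP, though none could pass in this design. *Ccl3* to *Ccl5* was 1.08, 1.25 and 1.11 in Ctrl and 2.11, 2.15 and 2.25 in LIP (mean log2 difference 0.92, exact p = 0.1). *Ccl3* to *Ccl4* was 1.45, 1.43 and 1.61 in Ctrl and 1.86, 1.93 and 1.97 in LIP (0.36, exact p = 0.1), and *Ccl6* to *Ccl9* was 20.1 ± 1.79 and 27.9 ± 4.42 (0.46, exact p = 0.1). Across the clusters, *Cxcl2* to *Ccl6* was 4.79 ± 0.313 and 6.41 ± 0.516 (0.42, exact p = 0.1). These last 4 ratios did not overlap between the groups, and their p adjusted over the 6 ratios was 0.15.

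**Figure D4:**
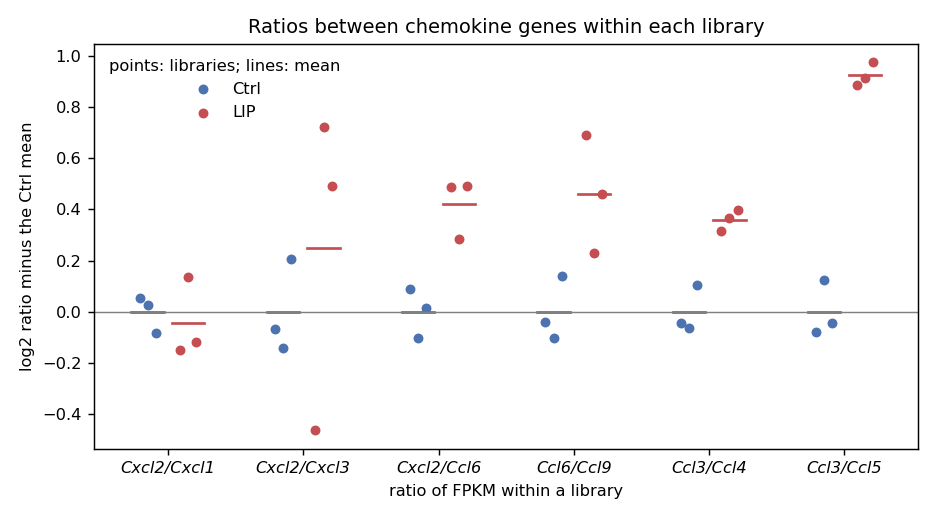
Log2 ratio of FPKM between pairs of chemokine genes in each library, minus the mean of the 3 Ctrl libraries, with 1 point per library and a line at the group mean. *Cxcl2*/*Cxcl1* and *Cxcl2*/*Cxcl3* overlap between Ctrl (blue) and LIP (red), and the other 4 ratios lie higher in LIP, *Ccl3*/*Ccl5* by 0.92.

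*Ccl5* and, to a lesser extent, *Ccl3* and *Ccl4* are also made by NK cells and effector T cells, so the markers of those cells were read beside them. The 14 T and NK cell genes were split after their values were seen. All 8 T cell genes were lower in LIP with TMM (median log2 fold change -2.64), with summed FPKM from 191 to 221 in Ctrl and from 28.8 to 40.5 in LIP. Of the 6 NK cell genes, 2 were higher and none lower with TMM (median 0.18, from -0.15 to 0.59), against 26.5% and 27.2% of all genes tested. With neutrophil scaling all 14 T and NK cell genes were lower, as were 88.5% of all genes tested. The summed FPKM of the 6 NK cell genes ran from 484 to 572 in Ctrl and from 413 to 452 in LIP. With TMM the log2 fold changes of *Ccl5* (-0.06) and *Ccl4* (0.48) lay within the range of the NK cell genes, and *Ccl3* (0.85) lay above it. Of all genes tested, 26.3% lay above its upper end and 52.0% above its lower end, so lying inside it sets no gene apart. The part that such cells had in the *Ccl3*, *Ccl4* and *Ccl5* values was not tested. The sort for CD11b and Ly6G is meant to leave out T, B and NK cells and monocytes, which are known to lack Ly6G.

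Monocytes and macrophages can make most of the 10 chemokines, and 10 of 12 of their genes were higher in LIP with TMM (median 1.12) and 10 lower with neutrophil scaling, with summed FPKM from 3490 to 4434 in Ctrl and from 6116 to 6897 in LIP. All 8 platelet genes were higher as well with TMM (median 1.24) and 6 were lower with neutrophil scaling, with summed FPKM from 758 to 1007 and from 1623 to 1890. Among all genes tested, 26.5% were higher with TMM and 88.5% were lower with neutrophil scaling. The eosinophil and basophil genes were low, with summed FPKM from 13.4 to 20.1 and from 18.4 to 23.9. The part of monocytes or platelets in the chemokine values was not tested.

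The receptors of these ligands were read next, in a list that also holds the atypical receptor gene *Ccrl2*. Of the receptor genes listed, 7 were tested, and with TMM 5 were higher in LIP and 1 lower (26.5% and 27.2% of all genes tested). With neutrophil scaling 2 were higher and 4 lower (0.613% and 88.5% of all genes tested). *Cxcr2*, the receptor of CXCL1, CXCL2 and CXCL3, rose from 470 ± 14.5 to 1968 ± 45.7 CPM (log2 fold change 2.07, adjusted p = 5.31e-08 from edgeR), and *Cxcr1* from 6.70 ± 1.33 to 40.2 ± 6.52 CPM (2.59, adjusted p = 7.65e-06). *Ccr1*, the receptor of CCL3, CCL5, CCL6 and CCL9, rose from 599.8 ± 85.5 to 2031 ± 136 CPM (1.76, adjusted p = 8.06e-07). Thus with TMM *Cxcr2* and *Ccr1* stood higher together with *Cxcl2* and *Ccl6*, the most abundant ligands of each receptor in the list. *Ccrl2*, an atypical receptor that binds chemerin, rose by 1.38 on the log2 scale, and *Cxcr3*, the receptor of CXCL10, by 0.71 from 14.2 ± 1.01 CPM, a call lost with library totals (0.39, adjusted p = 0.125). *Cxcr6*, the receptor of CXCL16, fell from 7.91 ± 2.46 to 2.04 ± 1.40 CPM (-1.95, adjusted p = 0.0165). This call was lost without Ctrl replicate 2 and with no filter on low genes (edgeR adjusted p = 0.0871). *Ccr3* had a log2 fold change of 0.66 and did not pass (adjusted p = 0.179), and *Ackr1* and *Ackr2* lay below the filter.

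Of 27 further chemokine ligand genes listed, 20 had a row and only 5 reached the filter. *Pf4* and *Ppbp*, chemokines of platelet granules, were higher by 1.21 and 1.23 on the log2 scale. Both are themselves on the platelet list, whose range was set by other members, *Gp6* (1.08) and *Itga2b* (1.44). *Ccl2*, which attracts monocytes, rose from 10.8 ± 5.41 to 24.9 ± 6.60 CPM (1.21, adjusted p = 0.0214 from edgeR), a call lost with library totals (0.89, adjusted p = 0.0662) and with no filter on low genes (adjusted p = 0.0849). In FPKM the groups overlapped for *Ccl2*. *Ccl7* (-0.83, adjusted p = 0.395) and *Xcl1* (-0.06, adjusted p = 0.891) did not pass. With neutrophil scaling none of the 5 was higher and 4 were lower (0.613% and 88.5% of all genes tested). The other 15 genes did not exceed 1.57 FPKM in any library, among them *Cxcl5*, another CXCR2 ligand, and the interferon-induced *Cxcl9* and *Cxcl11*. Most other chemokine ligands were thus near or below the limit of these libraries.

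Genes that share known inducers with the chemokines gave the following counts. Of 12 NF-κB-inducible genes, 10 were higher and none lower with TMM (median 1.41), against 26.5% and 27.2% of all genes tested. With neutrophil scaling none was higher and 8 were lower, against 0.613% and 88.5% of all genes tested. Those with the largest change were *Ptgs2* (2.01), the prostaglandin synthase induced in inflammation, *Zfp36* (1.93), whose protein binds ATTTA motifs and promotes mRNA decay, *Il1b* (1.9) and *Cd14* (1.63). *Il1a* (0.38) and *Il6* (0.06) did not pass. *Cxcl1* (1.82), *Cxcl2* (1.77) and *Cxcl3* (1.61) lay inside the range of these genes, from 0.06 to 2.01. So did every other chemokine gene tested except *Ccl5*. This range is wide, with 44.3% of all genes tested above its lower end, so lying inside it sets no gene apart.

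Beside *Cxcl10*, with its log2 fold change of 1.48, 9 of 10 interferon-inducible genes tested were higher and none lower with TMM (median 1.23). Over all genes tested these shares were 26.5% and 27.2%. With neutrophil scaling none of the 10 was higher and 8 were lower, against 0.613% and 88.5% of all genes tested. *Oasl2* (1.69), *Gbp2* (1.65), *Ifit1* (1.42) and *Ifit3* (1.35), whose products act in antiviral defence, changed most. *Stat2* (0.46) did not pass, and *Cxcl9* and *Cxcl11*, the other ligands of CXCR3, lay below the filter. *Cxcl10* was thus the single CXCR3 ligand of the list with a level that could be tested.

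**Figure D5:**
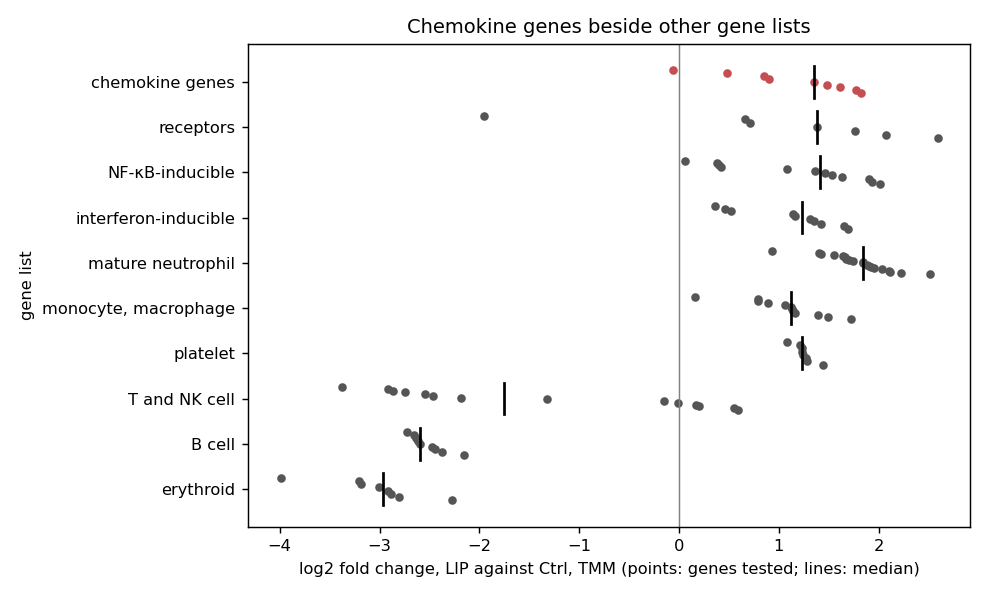
Log2 fold change with TMM of every gene tested in each list, LIP against Ctrl, with 1 point per gene and a line at the list's median. The chemokine genes (red, median 1.35) lie among the receptor (1.38), NF-κB-inducible (1.41), interferon-inducible (1.23) and mature neutrophil genes (1.84). They lie equally among the platelet (1.24) and the monocyte and macrophage genes (1.12). B cell (-2.59) and erythroid genes (-2.96) lie far to the left. With neutrophil scaling the chemokine median is -0.46.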

How the data were processed

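PB neutrophils were sorted from blood, and RNA was amplified by Smart-seq2, which copies full-length cDNA by PCR without molecular identifiers, so reads cannot be taken as separate molecules. The authors deposited raw counts per gene and FPKM values, which divide them by gene length and library total. The submitters' processing notes name cutadapt 1.9, FastQC and GRCm38, and the aligner, the counter and the use of strand are not given in the sources used here. For the 50 names found on several rows, the row of higher mean FPKM stands for the gene. The 10440 genes averaging 1 FPKM or more were tested on the counts with edgeR 4.0.16 (R 4.3.3, quasi-likelihood test, TMM, no covariate, Benjamini-Hochberg adjustment). The standard error (SE) is the size of the log2 fold change over the root of F. CPM is TMM-normalized, and n counts pools of 5 mice. Whether the pools were sorted separately is not stated, so p-values measure the spread between these libraries, none of which had counts within sampling noise of another.

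The labels give no batch. Libraries with the same number are from different mice. The members and all gene lists were chosen with earlier results of these data known. All members were named, as were the tested receptors and up to 4 called genes of the other lists with the largest change. Alternatives were library totals, median-of-ratios factors, scaling on 20 mature neutrophil genes, DESeq2 1.42.0, limma 3.58.1 on log2(FPKM + 1) and log2(FPKM + 0.1), other filters, a replicate block, and each library left out. Motifs and shared windows were counted in RefSeq promoters and GENCODE transcripts. The ratios between genes and the split of the T and NK cell genes were chosen after seeing the data. Some results are not reported here.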

Additional observations from a re-analysis of the deposited data

How the results depend on the processing

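With libraries scaled on mature neutrophil genes, the 8 chemokine genes higher in LIP became 0 and the lower ones 5, and among all genes tested 64 were higher and 9236 lower. The log2 fold changes then turned for *Cxcl2* (-0.03), *Cxcl3* (-0.20), *Cxcl10* (-0.33), *Ccl6* (-0.46), *Ccl9* (-0.92), *Ccl3* (-0.96) and *Ccl4* (-1.33), the other ligands had 0 higher and 4 lower, and the receptors 2 higher and 4 lower. This scaling lowers each value by the mean rise of its reference genes. 1 chemokine gene, *Ccl5*, was called lower with library totals and with limma on log2(FPKM + 1) or log2(FPKM + 0.1). *Ccl4* lost its call in those fits (adjusted p from 0.185 to 0.305), with a mean FPKM of at least 5 (0.32, adjusted p = 0.0528) and without Ctrl replicate 3. With a mean FPKM of at least 5, where 5328 genes were tested, 1768 were higher and 1869 lower. *Cxcr6* fell below that filter, and 0 receptors were lower there and with no filter. Median-of-ratios factors, DESeq2, no filter, filterByExpr and the replicate block changed no call of a chemokine gene.

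Leaving out each library gave 7 to 8 chemokine genes higher and 0 lower, 2419 to 2615 of all genes higher and 2255 to 2770 lower, 2 to 3 other ligands higher, 5 receptors higher and 0 to 1 lower, the 0 without Ctrl replicate 2. *Ccl5* then ranged from -0.09 to 0.01, the latter without Ctrl replicate 2. The causes were not tested. Same-numbered libraries did not deviate together (correlations from 0.0135 to 0.0522), and with the replicate block 2724 genes were higher and 2822 lower. At this depth, *Cxcl16* with 56 to 295 reads could not be tested well.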
